A study of Mus musculus with 12 samples.

Results

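The genes described here are *Tyrobp*, *C1qa*, *C1qb*, *C1qc*, *Mrc1*, *Pf4*, *Csf1r*, *Fcer1g*, *Cd68* and *Ptprc*, a set of macrophage and general leukocyte genes together with *Pf4*, a chemokine stored in platelets. They were taken by name: every probe set whose annotation gives 1 of these symbols and no other was read, which gave 15 of the 45037 probe sets tested and 10 of the 18193 genes measured. The names were chosen by measured values of these same arrays, the differences between genotypes and between days, so all values of the 10 genes are given as a description and none carries a p-value. The data come from 12 mouse 430 2.0 oligonucleotide arrays hybridised with total RNA, 2 arrays labelled as biological replicates for each of 6 groups. The groups are wild-type (WT) cells and cells without *Terc*, the RNA component of telomerase (*Terc*-/-, KO), both of C57BL/6 background and without any other treatment or allele in the labels, taken as ES cells (day 0) and after 8 and 15 days of differentiation. At day 0 the WT arrays hold the ES cell lines N12 and N33 at passage 12 and the KO arrays the lines F35 and A49 at passage 11. F35 and A49 derive from late-generation *Terc*-/- mice, F35 from generation G3 and A49 from generation G4. The study describes its array comparison as G4 *Terc*-/- against WT cells, while the labels of day 0 name both lines. ES cells were grown with LIF on fibroblast feeders treated with mitomycin-C. For days 8 and 15 embryoid bodies were formed in hanging drops without LIF over 4 days and then plated, and the labels do not say which line each of these 8 arrays holds. A line is 1 clone, so the spread between arrays of a group joins lines, cultures and arrays, and p-values measure only that spread.

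Macrophages are phagocytic cells that arise in the embryo first from yolk sac progenitors and later from blood stem cells, and cultures of embryoid bodies can form them beside blood, endothelium and mesenchyme. Their survival depends on the receptor tyrosine kinase Csf1r, which binds Csf1 and Il34, and their identity on the transcription factor PU.1, encoded by *Spi1*. Many of their surface receptors lack a signaling tail of their own and work through the adaptors Tyrobp and Fcer1g, whose phosphorylated tyrosine motifs (ITAMs) recruit the kinase Syk. Macrophages are also the main source of C1q, the complex of C1qa, C1qb and C1qc chains that starts the classical pathway of complement together with the proteases C1r and C1s.

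The arrays of day 0 were scaled apart from the others: their median intensity lay between 113.6 and 117, against 50.63 to 53.09 on the 8 arrays of days 8 and 15. Levels were therefore compared between genotypes within a day and between days 8 and 15 within a genotype, and day 0 was set beside later days only as the percentile of a probe set among all probe sets of its array. Log2 intensities of the 2 arrays of a group correlated with r between 0.9872 and 0.9955 across probe sets, which are not independent replicates. *Terc* itself was not analysed here, since no probe set of the annotation used carries that symbol alone, so the genotype labels were not set against the targeted gene. In these bulk samples, fewer cells of a type and less RNA per cell cannot be told apart.

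The adaptors *Tyrobp* and *Fcer1g* were high only on the WT arrays of day 15, among the 8 arrays of days 8 and 15. *Tyrobp* read 24.4 and 32.2 in WT and 27.0 and 25.1 in KO cells at day 8, and at day 15 it read 1082 and 353.9 in WT against 28.6 and 27.5 in KO cells. The groups of day 15 did not overlap, and the KO arrays stayed within the range of the WT arrays of day 8. The WT mean of day 15, 718 ± 515 (SD, n = 2), was 25.6 times the KO mean of 28.0 ± 0.785 (SD, n = 2), and its percentile among all probe sets was 88.6 in WT and 33.7 in KO cells. *Fcer1g*, the shared gamma chain of Fc receptors, read 29.5 and 43.8 in WT and 32.9 and 36.4 in KO cells at day 8, and 1139 and 282 in WT against 36.9 and 39.9 in KO cells at day 15. The ratio of the WT to the KO mean of day 15 was 18.5 for *Fcer1g*, and the log2 difference, KO minus WT, was -3.89 ± 0.51 (limma standard error, n = 2 against 2) beside -4.47 ± 0.42 for *Tyrobp*.

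The 3 chains of C1q moved together. *C1qa* read 27.3 and 28.1 in WT and 25.2 and 26.4 in KO cells at day 8, then 222 and 150.7 in WT against 26.3 and 32.4 in KO cells at day 15. *C1qc* read 15.3 and 18.7 in WT and 24.5 and 27.8 in KO cells at day 8, then 534.5 and 210 in WT against 23.9 and 25.1 in KO cells at day 15. For both genes the WT arrays of day 15 lay above every other array of days 8 and 15, while *C1qc* was somewhat higher in KO than in WT cells at day 8, by 0.62 ± 0.38 on the log2 scale. *C1qb* is read by 3 probe sets. The brightest, 1417063_at, read 13.1 and 12.8 in WT and 13.5 and 11.7 in KO cells at day 8, then 450.7 and 146.6 in WT against 12.2 and 12.6 in KO cells at day 15. The other two are of the x_at type, which the manufacturer marks as open to cross-hybridisation. Of these, 1437726_x_at went from 5.58 and 6.44 to 188.5 and 63.5 in WT cells, with 7.12 and 5.79 in KO cells at day 15, and 1434366_x_at from 19.1 and 13.8 to 100.5 and 41.6 in WT cells, with 16.1 and 17.0 in KO cells at day 15. All 3 sets thus had the same direction, but their size differed: the log2 difference at day 15, KO minus WT, was -4.38 ± 0.42, -4.09 ± 0.38 and -1.97 ± 0.33 in that order, beside -2.65 ± 0.22 for *C1qa* and -3.77 ± 0.38 for *C1qc*. In the RefSeq gene table of GRCm38.p6 the 3 genes are neighbours on chromosome 4, in the order *C1qb*, *C1qc*, *C1qa*.

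Among the receptors, *Mrc1*, the mannose receptor of tissue macrophages, followed the same course. It read 12.0 and 16.8 in WT and 15.5 and 17.3 in KO cells at day 8, and 504.8 and 140.7 in WT against 13.4 and 16.3 in KO cells at day 15. The WT mean of day 15, 323 ± 258 (SD, n = 2), was 21.7 times the KO mean. *Csf1r* stood apart in its starting level. Its brightest probe set, 1419872_at, already read 130 and 295.7 in WT and 242.6 and 196.6 in KO cells at day 8, at mean percentiles of 74.0 and 76.6. At day 15 it read 2462 and 1274 in WT and 336 and 425.6 in KO cells, a mean ratio of 4.91. Here the KO arrays of day 15 also lay above those of day 8, by 0.79 ± 0.37 on the log2 scale, and the WT arrays of day 8 differed more from each other than the KO arrays did. The other two sets of *Csf1r* had smaller differences: 1419873_s_at read 876 and 435 in WT against 149.4 and 135.8 in KO cells at day 15, and 1423593_a_at read 203.8 and 133.9 against 85.4 and 82.6. Their log2 differences, KO minus WT, were -2.12 ± 0.31 and -0.98 ± 0.19, against -2.23 ± 0.37 for the brightest set.

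*Cd68*, a glycoprotein of lysosomes and endosomes that macrophages hold in large amounts and other cells in smaller ones, differed least among the brightest probe sets. It read 84.3 and 96.9 in WT and 139.5 and 139.1 in KO cells at day 8, so that both KO arrays were the higher ones, by 0.62 ± 0.19 on the log2 scale. At day 15 it read 405.6 and 267 in WT and 194.5 and 212.7 in KO cells, a mean ratio of 1.65 and a log2 difference, KO minus WT, of -0.69 ± 0.19. Both genotypes were thus higher at day 15 than at day 8, by 1.86 ± 0.19 in WT and by 0.55 ± 0.19 in KO cells on the log2 scale. *Ptprc* encodes CD45, the phosphatase on nearly all nucleated blood cells. Its set 1422124_a_at read 15.5 and 15.5 in WT and 12.7 and 11.6 in KO cells at day 8, then 186 and 61.4 in WT against 15.9 and 14.2 in KO cells at day 15. The second set, 1440165_at, stayed dim throughout, with 13.5 and 15.3 in WT and 9.61 and 11.9 in KO cells at day 15, and its log2 difference of -0.43 ± 0.15 was the smallest of the 15 probe sets.

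*Pf4*, platelet factor 4 or CXCL4, followed the leukocyte genes. It read 37.4 and 77.7 in WT and 35.3 and 31.1 in KO cells at day 8, and 1318 and 338 in WT against 37.2 and 36.1 in KO cells at day 15. The WT mean of day 15, 828 ± 693 (SD, n = 2), was 22.6 times the KO mean of 36.7 ± 0.748 (SD, n = 2), and the log2 difference, KO minus WT, was -4.19 ± 0.55. At day 8 the second WT array was the highest of the 4 arrays of that day. That array read higher than the first WT array on the brightest sets of 8 of the 10 genes, and nearly level with it on those of *C1qb* and *Ptprc*. The share of all probe sets in that order at day 8 was not counted, so nothing is read from this count.

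**Figure D1:**
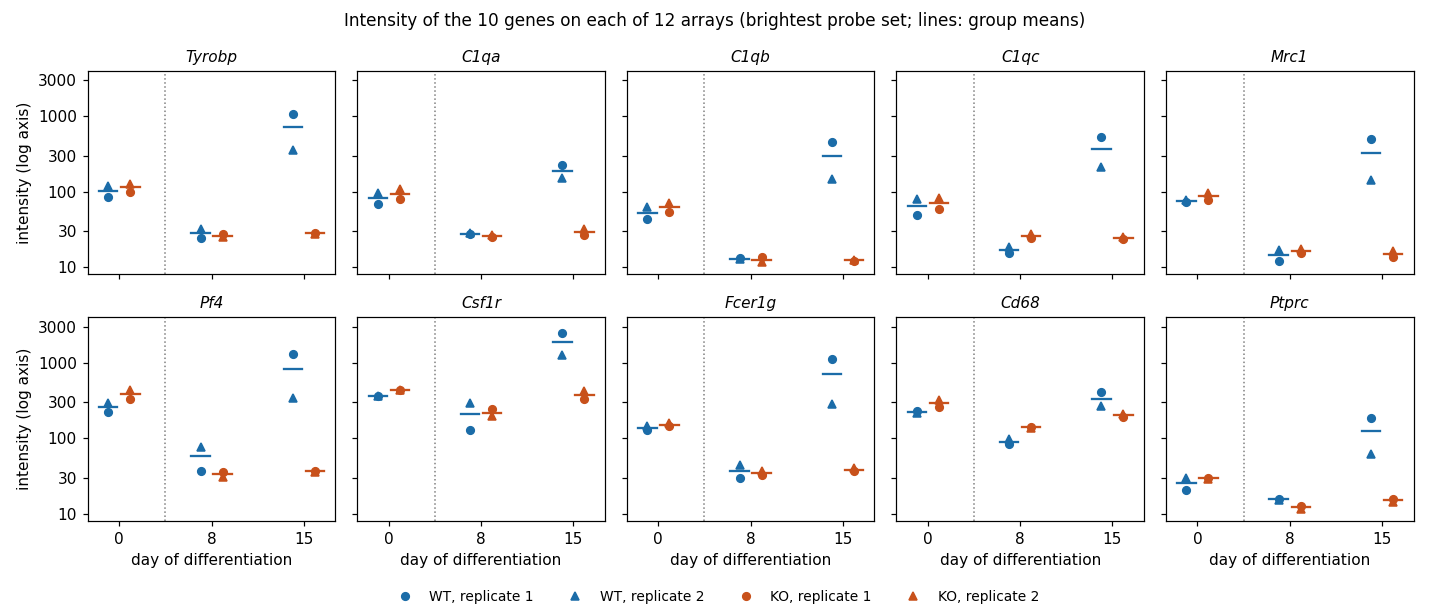
Intensity of the brightest probe set of each of the 10 genes (vertical log axis, shared by all panels) against the day of differentiation, with a circle and a triangle for replicates 1 and 2 of WT (blue) and KO (orange) cells and short lines for group means; the dotted line separates the arrays of day 0, which were scaled apart. Both WT arrays of day 15 lie above both KO arrays of that day in every panel, by a mean ratio of 1.65 for *Cd68* to 25.6 for *Tyrobp*.

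Counted over the 15 probe sets, both WT arrays of day 15 lay above both KO arrays on 15, an order that 23.4% of all probe sets had. In the limma fit, with a Benjamini-Hochberg threshold of 0.05 over all probe sets, 14 of the 15 were called lower in KO cells at day 15 and 0 higher, where 6.45% of all probe sets were called lower and 6.45% higher. The probe set not called was 1440165_at of *Ptprc*. With 1 array of day 15 left out, 12 to 14 were called: *Cd68* was not called without the first WT array or either KO array, and 1423593_a_at of *Csf1r* not without the first KO array. From day 8 to day 15, 14 of 15 were called higher in WT cells, where the shares of all probe sets called were 6.89% higher and 9.16% lower, and 0 of 15 were called in KO cells, where the share of all was 0.02%. At day 8 limma called 0 of 15 between genotypes, with 1 at an unadjusted p under 0.05, and the share of all probe sets called was 1.13%. These calls come from the contrasts known when the genes were picked, and nothing is read from them. The median log2 difference at day 15, KO minus WT, was -2.83 over the 15 probe sets and 0.04 over all probe sets. The median log2 change from day 8 to day 15 was 3.17 in WT and 0.15 in KO cells, against 0.00 and -0.01 over all probe sets.

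The difference between genotypes in the change from day 8 to day 15 was called on 6 of the 15 probe sets, those of *Tyrobp*, *C1qa*, *C1qc* and *Mrc1* and 2 of *C1qb*, where 0.284% of all probe sets were called lower and 0.138% higher. It ranged from -4.40 for *C1qc* to -0.42 for 1440165_at of *Ptprc*, with a median of -2.55. This count turned on single arrays: it was 14 without the second WT array of day 15, 10 without the second and 3 without the first WT array of day 8, and 0 or 1 without either of the KO arrays of day 8 or of day 15. With an offset of 32 added to each intensity, which damps the dim values, it was 2, and the difference at day 15 of 1417063_at of *C1qb* went from -4.38 to -2.73.

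**Figure D2:**
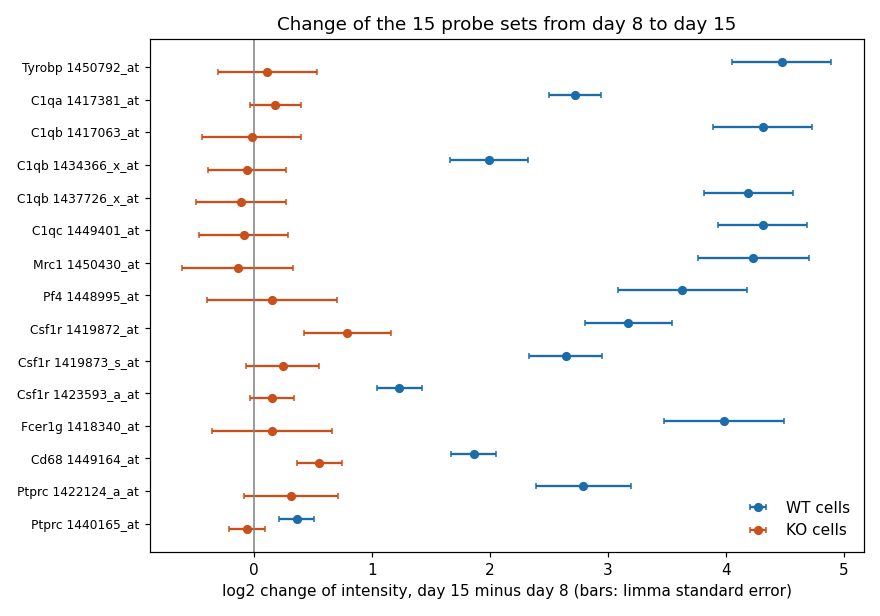
Log2 change of intensity from day 8 to day 15 (horizontal axis) of the 15 probe sets in WT (blue) and KO (orange) cells, with limma standard errors as bars (n = 2 arrays per group). WT changes run from 0.36 to 4.47 and KO changes from -0.14 to 0.79, with *Csf1r* 1419872_at and *Cd68* highest among the KO values.

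At day 0 the KO arrays read slightly higher than the WT arrays on these genes. The log2 differences, KO minus WT, ran from 0.01 to 0.59, with a median of 0.19 against 0.04 over all probe sets. Limma called 0 of 15 probe sets, with 1 at an unadjusted p under 0.05 and 0.0488% of all probe sets called. *Pf4* had the largest, with 224 and 291 in WT and 336.6 and 441.6 in KO ES cells. *Tyrobp* read 85.1 and 118.3 in WT and 100.1 and 126.8 in KO cells, *Mrc1* 73.6 and 77.6 against 78.1 and 94.8, and *Fcer1g* 127.4 and 146.7 against 145.5 and 157.7. The ranges of the genotypes overlapped for *Tyrobp* and *Fcer1g* and lay just apart for *Mrc1*. *C1qa* read 69.1 and 95.1 in WT and 80.0 and 106.8 in KO cells, *C1qc* 49.2 and 80.0 against 59.4 and 83.4, and *C1qb* (1417063_at) 43.0 and 62.6 against 53.4 and 70.7. The genotypes overlapped on each of these C1q sets, and on *Ptprc* below. *Csf1r* (1419872_at) read 361 and 359.9 in WT and 440.7 and 443.1 in KO cells, *Cd68* 227.9 and 220.0 against 261.7 and 324.2, and *Ptprc* (1422124_a_at) 20.5 and 30.02 against 29.8 and 29.2. As percentiles of their arrays, *Tyrobp* stood at 45.7 in WT ES cells, at 35.2 in WT cells of day 8 and at 88.6 in WT cells of day 15, and *Pf4* at 70.0, 50.8 and 88.8. *Ptprc* was the dimmest of the brightest sets at day 0, with percentiles of 8.09 in WT and 9.77 in KO cells. The 9 fibroblast genes measured were also higher on the KO arrays of day 0. Their median log2 difference was 0.93, and their sums were 2724 and 4746 in WT against 5021 and 7696 in KO cells. Limma called 0 of the 9. The sums of the 10 genes were 1281 and 1481 against 1585 and 1878. The ES cells were grown on fibroblast feeders, and the part of feeder cells in these differences was not tested.

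The 2 WT arrays of day 15 differed from each other on these genes. Replicate 1 was the higher one on 14 of the 15 probe sets, where it was the higher one on 52.3% of all probe sets. The ratio of replicate 1 to replicate 2 was 4.04 for *Fcer1g*, 3.90 for *Pf4*, 3.59 for *Mrc1*, 3.07 for *C1qb*, 3.06 for *Tyrobp* and 3.03 for *Ptprc*. It was lower for *C1qc*, 2.55, *Csf1r*, 1.93, *Cd68*, 1.52, and *C1qa*, 1.48, and the median over the 10 brightest sets was 3.05. The KO arrays of day 15 differed by much less, with *Tyrobp* at a ratio of 1.04 and *Pf4* at 1.03. Summed over 8 pluripotency genes, the replicates ran the other way, with 2273 in replicate 1 and 7431 in replicate 2, and 0 of the 8 genes were higher in replicate 1. Without replicate 1 the log2 difference at day 15, KO minus WT, was -3.66 for *Tyrobp*, -3.20 for *Pf4*, -2.88 for *Fcer1g* and -0.39 for *Cd68*. Without replicate 2 it was -5.27, -5.17, -4.89 and -1.0. No direction turned on either array, while the size did.

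**Figure D3:**
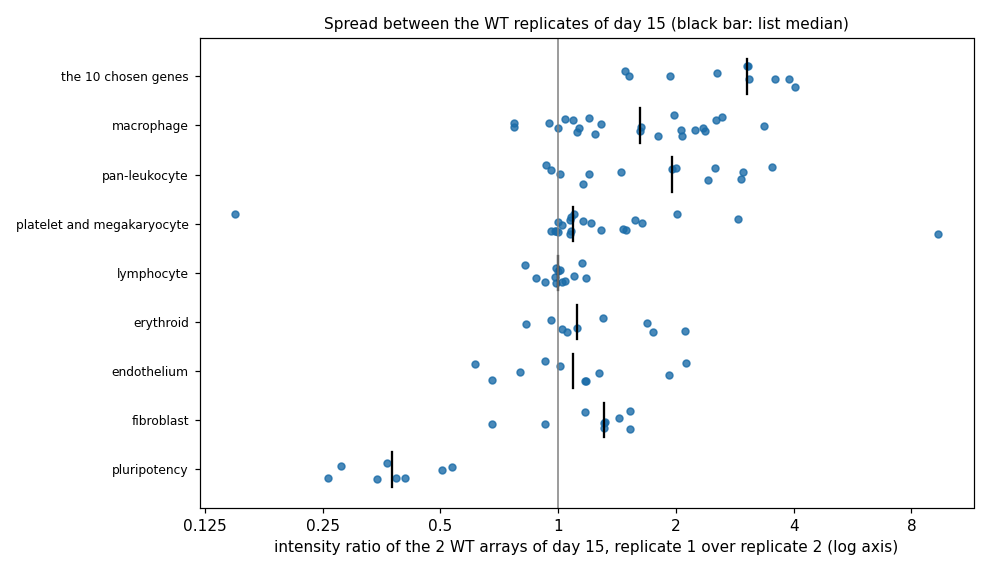
Ratio of the intensities of the 2 WT arrays of day 15, replicate 1 over replicate 2 (horizontal log axis), for the brightest probe sets of the 10 genes and for the genes of 8 marker lists, with a black bar at each median. The 10 genes lie between 1.48 and 4.04 with a median of 3.05, beside medians of 1.62 for macrophage, 1.95 for general leukocyte, 0.997 for lymphocyte and 0.375 for pluripotency genes.

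The label of macrophage genes was set against genes outside the 10. Over 4 lists with 65 measured genes (macrophage markers, ITAM receptors and their signaling, the Csf1r axis with myeloid transcription factors, and general leukocyte genes), 25 were lower and 2 higher in KO cells at day 15, or 38.5% and 3.08%, and their median log2 difference was -0.41 against 0.04 over all probe sets. With each array left out in turn, 15 to 32 of the 65 were called. The 2 higher genes were *Myb* and, named after its values were seen, *Itgb2*. From day 8 to day 15, 30 of the 65 rose and 2 fell in WT cells, the latter being *Myb* and, named after its values were seen, *Plcg2*. Of all probe sets, 6.89% were called higher and 9.16% lower in WT cells. In KO cells limma called 0 of the 65, with 5 at an unadjusted p under 0.05. There it called 0.02% of all probe sets, with 4847 of 45037 at an unadjusted p under 0.05, so nothing is read from the 0. The calls in WT cells went from 32 to 21 without the first WT array of day 15, and to 7 with only the compared arrays in the fit. At day 8 between genotypes 1 gene was called, *Itgb2*, a beta integrin of leukocytes, which was higher in KO cells by 1.07 ± 0.14 (adjusted p = 0.00837). No gene of these lists was called at day 8 when either KO array of that day was left out, among brighter probe sets or with only the compared arrays in the fit, and 3 were called without the first WT array.

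Of 23 macrophage markers, limma called 12 lower in KO cells at day 15 and 0 higher, beside 6.45% of all probe sets in each direction. *Lyz1*, a lysozyme, read 599.8 and 267 in WT against 22.1 and 37.4 in KO cells, a log2 difference of -3.80 ± 0.52 (limma adjusted p = 0.00232), though *Lyz1* and *Lyz2* are near-identical and their probes may not separate them. *Ctss*, the lysosomal protease cathepsin S, read 309.7 and 156.7 against 24.4 and 16.9, with -3.44 ± 0.37 (adjusted p = 0.000566). *Mpeg1*, a pore-forming protein of macrophages, and *Aif1*, the microglia and macrophage marker Iba1, had -2.52 ± 0.32 (adjusted p = 0.00107) and -2.48 ± 0.34 (adjusted p = 0.00177). All 4 differences lay within the range of those of the 10 genes. *Adgre1*, which encodes F4/80, read 138.4 and 67.0 in WT against 48.7 and 37.3 in KO cells (-1.18 ± 0.27, adjusted p = 0.0175), and *Cd14*, the co-receptor for lipopolysaccharide, 63.8 and 39.2 against 24.3 and 21.3 (-1.14 ± 0.22, adjusted p = 0.00765). The call for *Adgre1* was lost without the first WT array, at -0.65, and without either KO array, and that for *Cd14* without the first WT array, at -0.78, or the second KO array. Among the 11 that did not pass, named after their values were seen, *Itgam*, the integrin CD11b, had -0.05 ± 0.17, *Vsig4*, a complement receptor, -0.07 ± 0.23, and *Cd163*, a receptor for haemoglobin complexes, 0.29 ± 0.22. These 3 genes were dim at day 15 in both genotypes, so little can be read from their small differences. Their mean percentiles, in that order, were 9.65, 16.8 and 4.37 in WT and 8.49, 15.1 and 6.28 in KO cells. Not all that did not pass were dim. *Siglec1* had 0.09 ± 0.13, at mean percentiles of 55.3 in WT and 56.5 in KO cells. *Gpnmb* had 0.10 ± 0.12, at 45.0 and 46.5, and *Msr1* -0.38 ± 0.14, at 60.3 and 54.9. They too were named after their values were seen, and each is given by 1 of several probe sets.

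Among 16 genes of ITAM receptors and their signaling, limma called 4 lower in KO cells at day 15 and 0 higher. *Fcgr3*, the low-affinity IgG receptor that signals through Fcer1g, read 311.4 and 194 in WT against 45.8 and 46.9 in KO cells (-2.41 ± 0.24, limma adjusted p = 0.000276). *Trem2*, a lipid receptor that signals through Tyrobp, read 137.9 and 81.2 against 61.4 and 52.2 (-0.90 ± 0.20, adjusted p = 0.0141). *Fcgr4*, another Fc receptor paired with Fcer1g, had -0.88 ± 0.22 (adjusted p = 0.0217) and *Btk*, a kinase downstream, -0.85 ± 0.15 (adjusted p = 0.00366). Receptors of the same adaptors that did not pass were also on the list: *Fcgr1*, the high-affinity IgG receptor, read 54.1 and 34.5 in WT and 39.9 and 35.3 in KO cells (-0.20 ± 0.18, adjusted p = 0.547). *Syk*, the kinase that binds phosphorylated ITAMs, is given by 1 of its 4 probe sets. It read 66.6 and 38.8 against 47.2 and 48.6 (-0.09 ± 0.21, adjusted p = 0.855). The signs of *Fcgr1* and *Syk* turned without the first WT array, to 0.12 and 0.31. The calls for *Trem2* and *Fcgr4* were lost without that array, at -0.52 and -0.49, and without either KO array.

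The ligands of Csf1r did not pass at day 15. *Csf1* read 728.9 and 656.1 in WT and 532.4 and 578.6 in KO cells (-0.32 ± 0.24, limma adjusted p = 0.471), and *Il34* read 31.0 and 33.9 against 29.6 and 29.2 (-0.14 ± 0.15, adjusted p = 0.621). The set given is 1 of 4 for *Csf1*. *Spi1*, the gene of PU.1, rose in WT cells from 60.4 and 57.3 at day 8 to 191.7 and 78.5 at day 15 (1.06 ± 0.31, adjusted p = 0.0438), and read 76.6 and 67.0 in KO cells. Its difference between genotypes at day 15 was -0.78 ± 0.31 (adjusted p = 0.142), which passed only without the second WT array, at -1.42. *Irf8*, a transcription factor of monocytes and macrophages, was lower in KO cells with -0.81 ± 0.17 (adjusted p = 0.0118), and *Csf2rb*, the shared beta chain of cytokine receptors, with -0.73 ± 0.17 (adjusted p = 0.0192). The call for *Irf8* was lost without the first WT array, at -0.49, or either KO array, and that for *Csf2rb* without any 1 of the 4 arrays of day 15, at -0.75 to -0.70. *Runx1*, needed for the first definitive blood cells, read 55.4 and 50.1 in WT against 45.5 and 49.8 in KO cells (-0.15 ± 0.12, adjusted p = 0.504). This is 1 of the 6 probe sets of *Runx1*, brightest through day 0, with means of 435.6 in WT and 502.9 in KO ES cells. The other sets are not given. *Myb*, a regulator of blood stem cells that is also expressed in other immature cells, went the other way, with 29.1 and 36.3 in WT against 125.8 and 106 in KO cells (1.83 ± 0.25, adjusted p = 0.0014). The set given is 1 of 3 for *Myb* and of the x_at type, open to cross-hybridisation.

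Of 13 general leukocyte genes, 7 read lower in KO cells at day 15 past the threshold, and 1 read higher. *Cd53*, a leukocyte tetraspanin, read 265 and 89.3 in WT against 24.4 and 24.4 in KO cells (-2.66 ± 0.37, limma adjusted p = 0.00205), and *Cd52*, a small surface glycoprotein, 286 and 97.7 against 30.6 and 28.7 (-2.49 ± 0.38, adjusted p = 0.00308). *Coro1a*, an actin regulator of leukocytes, had -1.78 ± 0.50 (adjusted p = 0.0484). The call of *Coro1a* was lost without the first WT array, at -0.87, and without either KO array. As with the 10 genes, *Cd53* and *Cd52* were higher on the first than on the second WT array, with ratios of 2.97 and 2.93.

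The partners of C1q were read as well. Of 8 complement genes, 3 were lower and 2 higher in KO cells at day 15. *Serping1*, the C1 inhibitor, read 425.9 and 311.7 in WT against 125.6 and 122.1 in KO cells (-1.56 ± 0.21, limma adjusted p = 0.00112), and *Cd93*, a receptor of endothelium and myeloid cells once described as binding C1q, 163.8 and 185 against 46.5 and 71.5 (-1.59 ± 0.21, adjusted p = 0.000991). *Cfb*, factor B of the alternative pathway, had -0.99 ± 0.29 (adjusted p = 0.049), a call lost without the second WT array, at -0.39, or either KO array. *C2* was higher in KO cells, by 0.58 ± 0.15 (adjusted p = 0.023), a call lost without any 1 of the 4 arrays, and so was *C1qbp*, a mitochondrial protein despite its name and named here after its values were seen, by 0.33 ± 0.07 (adjusted p = 0.00982). The sets given, 1 of 3 for *C2* and 1 of 2 for *C1qbp*, are of the x_at type, open to cross-hybridisation. The proteases of the C1 complex did not pass: *C1ra* read 23.1 and 24.0 in WT and 19.4 and 16.5 in KO cells (-0.40 ± 0.16, adjusted p = 0.142), and *C1s1* 46.5 and 61.9 against 69.7 and 52.8 (0.18 ± 0.21, adjusted p = 0.665). *C1ra* was dim, at mean percentiles of 29.6 in WT and 21.6 in KO cells at day 15. From day 8 to day 15 limma called both proteases higher in WT cells, *C1ra* by 0.62 ± 0.16 (adjusted p = 0.0235) and *C1s1* by 0.69 ± 0.21 (adjusted p = 0.0447). In KO cells their changes were 0.15 ± 0.16 and 0.28 ± 0.21 and did not pass. Whether the proteases differ from the C1q chains in their response was not tested.

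The platelet part of the label was set against 22 platelet and megakaryocyte genes, of which 6 were lower and 1 higher in KO cells at day 15, with a median log2 difference of -0.20, beside 6.45% of all probe sets called in each direction. None of the 4 that were named whatever their values passed. *Itga2b*, the integrin CD41, read 139 and 120.0 in WT and 95.9 and 110.4 in KO cells (-0.33 ± 0.14, limma adjusted p = 0.161), *Gp9* read 77.8 and 72.1 against 90.4 and 74.8 (0.13 ± 0.15, adjusted p = 0.646), and *Gp1bb* 50.4 and 38.9 against 50.9 and 45.3 (0.12 ± 0.15, adjusted p = 0.689). *Gp9* and *Gp1bb* encode parts of the receptor for von Willebrand factor. *Ppbp*, the platelet chemokine whose gene lies next to *Pf4* on chromosome 5, read 107.7 and 53.5 in WT and 51.7 and 74.5 in KO cells (-0.29 ± 0.52, adjusted p = 0.795), so its groups overlapped where those of *Pf4* did not. The genes that were lower were led by *F13a1*, the A subunit of factor XIII, which macrophages also make, with 978.5 and 104.4 in WT against 20.2 and 17.7 in KO cells (-4.08 ± 0.78, adjusted p = 0.0106). *Plek*, the protein kinase C substrate pleckstrin of platelets and leukocytes, had -2.52 ± 0.52 (adjusted p = 0.0142) and *Clec1b*, the podoplanin receptor CLEC-2, -1.39 ± 0.33 (adjusted p = 0.0222). The call of *F13a1* was lost without the first KO array, at -4.17, and those of *Plek* and *Clec1b* without that array or the first WT array, so that 1 to 6 genes were called with an array left out. The other 3, named after their values were seen, were *Fli1*, *Vwf* and *Zfpm1*, with -0.93, -0.87 and -0.68. *Rasgrp2*, an exchange factor for Rap1, was the gene that was higher, by 1.15 ± 0.18 (adjusted p = 0.00239). It is given by 1 of its 4 probe sets, which is of the x_at type, open to cross-hybridisation. Calls within the platelet list were thus mixed, and which cells the *Pf4* signal came from was not tested.

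Other cell types moved with the genotype at day 15 as well. Of 10 endothelial genes, 8 were lower in KO cells, and their summed intensity was 2377 and 1684 in WT against 761.5 and 747 in KO cells. *Tek* and *Kdr*, receptors for angiopoietin and VEGF, had -2.40 ± 0.44 (limma adjusted p = 0.00807, lost without the first WT or the first KO array) and -2.35 ± 0.36 (adjusted p = 0.00299), while *Pecam1* had -0.26 ± 0.15 (adjusted p = 0.301). Of 9 fibroblast genes, 6 were lower, with sums of 73780 and 55810 against 10480 and 15370. Of 9 erythroid genes, 3 were lower, all embryonic globins whose probes may share targets, and *Hbb-bh1* read 873.5 and 909.7 against 29.7 and 22.9 (-5.10 ± 0.65, adjusted p = 0.00176). The other two, *Hbb-y* and *Hba-x*, lost their calls without the first KO array, and *Hba-x* also without the second KO or the first WT array. Of 8 pluripotency genes, 7 were higher, with sums of 2273 and 7431 in WT against 18100 and 17250 in KO cells. The part of these cell types in the differences of the 10 genes was not tested. On the second WT array of day 8 the erythroid sum was already 2228, against 487 on the first and 394 and 408.5 in KO cells. *Hbb-bh1* read 498.7 there. The fibroblast sum was 26090 on that array against 6607 on the first, with 3350 and 3516 in KO cells. Summed over their brightest sets, the 10 genes read 638.2 against 389, with 568.8 and 522.9 in KO cells. Of these, *Csf1r* and *Pf4* read 295.7 and 77.7 there against 130 and 37.4 on the first WT array. *Tyrobp*, *C1qb* and *Mrc1* read 32.2, 12.8 and 16.8 against 24.4, 13.1 and 12.0. Whether the courses in time differ was not tested.

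Markers of other leukocytes were read as well, and their counts lie near the 6.45% of all probe sets called in each direction, so nothing is read from them. Among 13 lymphocyte genes limma called 0 at day 15, with 0 at an unadjusted p under 0.05, and their summed intensity was 406.9 and 399 in WT against 432 and 367 in KO cells. *Cd3e*, of the T cell receptor complex, read 55.5 and 48.2 in WT and 49.5 and 45.7 in KO cells, *Cd79a*, of the B cell receptor, 32.8 and 32.9 against 31.7 and 30.5, and *Cd4* 81.7 and 74.0 against 85.4 and 74.0. Among 15 granulocyte and mast cell genes 1 was called, *Ltf*, which was higher in KO cells by 0.51 ± 0.15 (limma adjusted p = 0.0444), and *Mpo*, the peroxidase of neutrophil granules, read 25.2 and 24.0 in WT against 21.9 and 15.6 in KO cells (-0.41 ± 0.18, adjusted p = 0.177). That call was lost without either WT array or the first KO array.

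**Figure D4:**
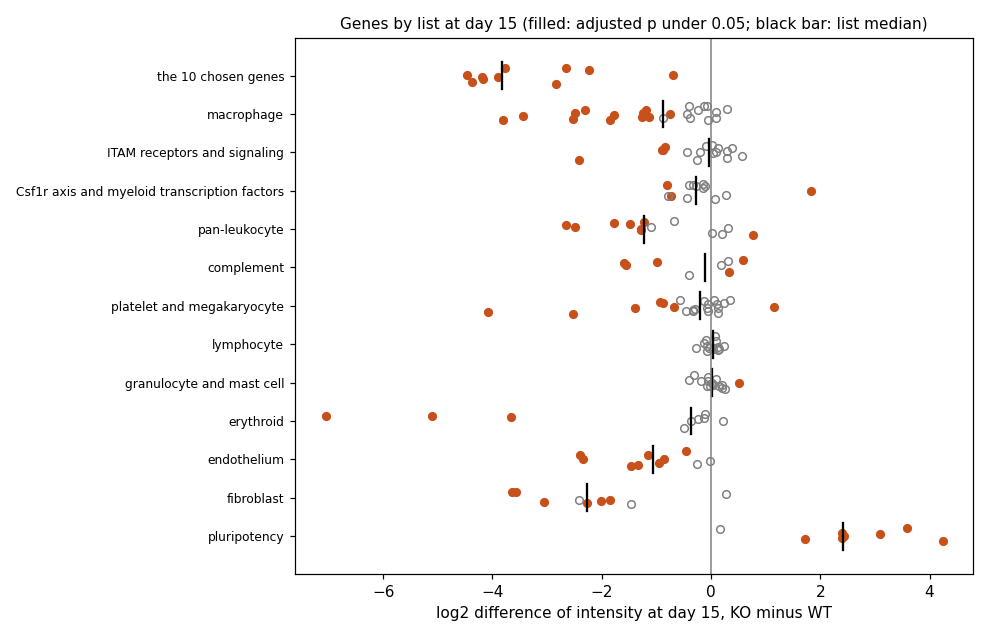
Log2 difference of intensity at day 15, KO minus WT (horizontal axis), for the brightest probe sets of the 10 genes and for the genes of 12 marker lists, with filled points for genes past a limma adjusted p of 0.05, open points for the others and a black bar at each median. The 10 genes run from -4.47 to -0.69, the macrophage list has a median of -0.87, the platelet list of -0.20 and the lymphocyte list of 0.03, and the pluripotency list lies above 0 with a median of 2.42.

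The genes most like the 10 were sought among the brightest probe sets whose log2 values spanned at least 2 over the 8 arrays of days 8 and 15, by Pearson's r with the mean log2 profile of the 10. The 10 highest were *Ms4a6b* (r = 0.994), *Cd53*, *Fcrls*, *Slc14a1*, *Prss35*, *Lyz2*, *Fcgr3*, *Cd52*, *Sspn* and *St8sia1* (r = 0.987), with r over 8 arrays of 4 groups as a description only. Of these, *Ms4a6b*, a membrane protein of the MS4A family, read 194 and 54.7 in WT against 11.0 and 12.4 in KO cells at day 15, and *Fcrls*, an Fc receptor-like gene of macrophages and microglia, 282 and 121.4 against 34.8 and 31.4. *Slc14a1*, a urea transporter, read 99.0 and 55.4 against 11.9 and 10.8. *St8sia1*, a sialyltransferase of ganglioside synthesis, read 312.9 and 119.8 against 36.9 and 44.2. Leukocyte genes and genes of other roles thus stood side by side in this ranking. Within the 10, the r of each probe set with the mean of the other genes was 0.952 or more, apart from 0.822 for *Cd68* and 0.733 for 1440165_at of *Ptprc*, the sets whose differences between genotypes were smallest. A high r among the 10 comes with their choice by these same differences, and nothing is read from it.

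The promoters of the 10 genes were searched on both strands for the letters of 3 blood transcription factors, as a description. The windows ran from 250 bases before to 50 after the start of transcription (RefSeq, GRCm38.p6). That the genes moved together comes with their choice by these arrays, and nothing is read from it. The table used holds 8 promoters of 7 of the genes and none of *Tyrobp*, *C1qa* and *Csf1r*. The core of PU.1 sites, GAGGAA, read on either strand, lay in 6 of the 8, 1 each for *Ptprc*, *Mrc1*, *C1qb*, *C1qc*, *Pf4* and *Cd68*, and in 28.3% of the 32851 promoters of the table. AGATAA, bound by GATA factors, lay in 2 of 8 (*Pf4* and the second promoter of *Ptprc*), and in 11.2% of all. TGTGGT, bound by RUNX factors, lay in 2 of 8 (*Fcer1g* and *C1qc*), and in 16.8% of all. No match of 1 motif overlapped another. A match gives only the letters, not a bound site. Printed below are the promoters of both C1q chains in the table and of *Mrc1* and *Pf4*, shown for where the matches lie. That of *Fcer1g* is shown as a promoter without GAGGAA on either strand, though it holds the shorter GGAA, which was not searched for. The log2 difference of *Fcer1g* at day 15, KO minus WT, was -3.89 ± 0.51. Capitals mark each match to the PU.1 core, which appears as its reverse complement, TTCCTC, where it lies on the other strand.
C1qb, chr4:136886151-136886450, - strand: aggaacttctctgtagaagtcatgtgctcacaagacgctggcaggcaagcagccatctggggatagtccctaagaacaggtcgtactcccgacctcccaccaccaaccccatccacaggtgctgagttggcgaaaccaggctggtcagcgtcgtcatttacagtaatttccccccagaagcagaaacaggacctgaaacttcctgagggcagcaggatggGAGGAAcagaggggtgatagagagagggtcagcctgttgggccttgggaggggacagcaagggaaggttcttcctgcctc
C1qc, chr4:136892865-136893164, - strand: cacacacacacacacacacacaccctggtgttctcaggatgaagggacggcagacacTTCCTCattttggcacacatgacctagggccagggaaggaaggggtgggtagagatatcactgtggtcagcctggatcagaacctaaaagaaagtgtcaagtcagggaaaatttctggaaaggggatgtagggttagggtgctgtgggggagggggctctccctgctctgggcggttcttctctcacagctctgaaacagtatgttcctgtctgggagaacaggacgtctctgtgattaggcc
Mrc1, chr2:14229164-14229463, + strand: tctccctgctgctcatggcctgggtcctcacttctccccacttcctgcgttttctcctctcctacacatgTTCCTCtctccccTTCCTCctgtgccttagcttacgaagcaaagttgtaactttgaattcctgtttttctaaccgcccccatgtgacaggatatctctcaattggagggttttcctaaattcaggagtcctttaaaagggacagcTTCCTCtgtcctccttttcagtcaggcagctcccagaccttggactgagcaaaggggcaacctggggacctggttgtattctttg
Pf4, chr5:90772185-90772484, + strand: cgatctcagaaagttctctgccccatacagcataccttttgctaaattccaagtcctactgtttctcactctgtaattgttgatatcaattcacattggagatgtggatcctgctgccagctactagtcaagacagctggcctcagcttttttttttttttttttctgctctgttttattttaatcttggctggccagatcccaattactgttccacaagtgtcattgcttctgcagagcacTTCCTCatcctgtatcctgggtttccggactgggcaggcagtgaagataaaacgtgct
Fcer1g, chr1:171234300-171234599, - strand: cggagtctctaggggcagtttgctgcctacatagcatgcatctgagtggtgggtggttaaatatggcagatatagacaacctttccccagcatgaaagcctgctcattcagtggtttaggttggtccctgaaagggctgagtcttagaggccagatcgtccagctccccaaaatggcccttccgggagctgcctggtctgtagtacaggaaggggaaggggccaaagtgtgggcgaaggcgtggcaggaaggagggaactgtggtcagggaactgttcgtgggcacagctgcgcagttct
Counted from the start of transcription, the match begins at -30 in *C1qb*, at -193 in *C1qc* and at -8 in *Pf4*, and the 3 matches of *Mrc1* begin at -180, -167 and -35.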

How the data were processed

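Affymetrix mouse arrays were hybridised with total RNA of 12 cell samples, 2 per group. What the authors deposited is 1 scaled linear intensity per probe set and array. MAS5 is named in the submitters' notes, without version or settings, and the software of CapitalBio in the study's methods. After leaving out 64 controls of 45101 probe sets, 45037 were tested: 34945 carry 1 gene symbol in the platform annotation, 932 several and 9160 none. Intensities were floored at 1, taken to log2 and fitted in R 4.3.3 with limma 3.58.1 and statmod 1.5.0, using 1 mean per group over all 12 arrays, an intensity trend and robust moderation. Two-sided p-values were adjusted (Benjamini-Hochberg) across the whole array. The fitting script was tested on simulated data.

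The 10 genes and the 12 lists (174 genes, of which 159 were measured, each by its brightest probe set) were chosen with earlier results of these data known. The brightest set was the one of highest mean intensity over all 12 arrays, in which the arrays of day 0 weigh more by their scale. Other sets of a list gene are not given and may differ. Sets of the x_at type read *Rasgrp2*, *Myb*, *C2* and *C1qbp*, higher in KO cells at day 15, and *Lyz1* and *Hbb-y*, lower. Named outside the 10 are up to 4 genes per list with the largest called difference at day 15, a set of defining genes whatever their values, and the 10 genes of most similar profile. Genes of the first kind that are not named stand only within the counts and sums of their list. Alternatives were median and quantile scaling, an offset of 32, brighter probe sets only, plain limma and a fit of the compared groups alone. Further ones were an unpaired 2-group t-test, a replicate block, and leaving out each array. Detection calls were not used here, and the number of arrays limits the precision. Figures were drawn with matplotlib 3.10.9 under Python 3.11.15, and tables made with pandas 2.3.3 and numpy 2.4.6.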

Additional observations from a re-analysis of the deposited data

Results flagged for a closer look

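The difference between genotypes in the change from day 8 to day 15 was past the threshold of the limma fit, over all probe sets, for some of the genes above. Among the 10 genes this is a description, since they were picked with it in view: the log2 difference, KO minus WT, was -4.36 for *Tyrobp*, -2.55 for *C1qa*, -4.33 and -4.30 for the sets 1417063_at and 1437726_x_at of *C1qb*, -4.40 for *C1qc* and -4.37 for *Mrc1*. Among the other genes named, limma gave -3.35 for *Ctss* (adjusted p = 0.032), -2.84 for *Mpeg1* (adjusted p = 0.0324), -2.69 for *Fcgr3* (adjusted p = 0.0102), -1.81 for *Serping1* (adjusted p = 0.032) and 3.90 for *Tdgf1*, a pluripotency gene (adjusted p = 0.0328). Among the genes of most similar profile, the values were -2.69 for *Fcrls*, -2.91 for *Slc14a1*, -2.24 for *Prss35* and -1.73 for *Sspn*. These genes were ranked on these arrays by their likeness to the 10, so their values are a description and carry no p-value. Groups of 2 arrays are too small for a check of single outlying arrays.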

How the results depend on the processing

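The log2 differences of the 15 probe sets at day 15 stayed below 0 under every alternative run (172 of 172 values), and the changes in WT cells above 0 (172 of 172). Counts of calls moved. For the arrays the study's methods name a fold-change rule and no test. An unpaired 2-group t-test on log2 intensities was run as an alternative. With it, 0 of 15 probe sets passed in either comparison (7 at an unadjusted p under 0.05 in each). The count was also 0 for the leukocyte and macrophage lists at day 8 (9 unadjusted), at day 15 (13) and over time in WT cells (16). For the platelet list it was 0 at day 15 (2) and over time (4). Among brighter probe sets only, 7 of the 15 were in the fit and 7 were called at day 15 and 7 over time in WT cells; the lists gave 0 at day 8, 17 at day 15 and 18 over time, and the platelet list 2 and 3. With only the arrays compared in the fit, the counts were 8 and 7 for the 15 probe sets, 0, 16 and 7 for the lists and 4 and 1 for the platelet list, and in KO cells over time they went from 0 to 2 for the 15 probe sets, to 2 for the lists and to 2 for the platelet list. For the change between genotypes the 6 calls became 2 with the offset of 32, 1 among brighter probe sets and 1 with only the arrays compared. Leaving out each array in turn gave 12 to 14 calls at day 15 and 0 to 14 for the change between genotypes among the 15 probe sets, 0 to 3 at day 8, 15 to 32 at day 15 and 21 to 38 over time in WT cells for the lists, and 1 to 6 and 2 to 8 for the platelet list. The platelet count at day 15 was 2 without the first WT array and 1 without the first KO array. Signs turned for genes that had not passed. Leaving out 1 array of day 15 in turn gave *Fcgr1* -0.53 to 0.12, *Syk* -0.48 to 0.31, *Ppbp* -0.79 to 0.22 and *C1s1* -0.03 to 0.38, with the sign turned without the first WT array and, for *C1s1*, also at -0.02 without the first KO array. It gave *Cd4* -0.07 to 0.13, *Gp1bb* -0.07 to 0.30 and *Gp9* -0.0024 to 0.27, with the sign turned without the first KO array for *Cd4* and *Gp9* and without the second WT array for *Cd4* (-0.04) and *Gp1bb*. The cause of these moves was not tested, beyond the smaller number of probe sets or arrays in a fit. Deviations of same-numbered arrays correlated between -0.068 and 0.131 over pairs of groups. This gave no sign that replicate numbers pair the samples, but it cannot exclude a shared line, culture or batch. With the replicate block 14 probe sets were called at day 15 and 5 for the change between genotypes, and no count moved by over 1.5 times.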
